A study of Mus musculus with 5 samples.

Results

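Cytochrome P450 families 1 to 3 are the haem enzymes that oxidise drugs, steroids, fatty acids and environmental chemicals. Members were the genes of the deposited count table whose symbol is Cyp, a family number from 1 to 3, a subfamily letter and a gene number, with at least 10 counts summed over the 5 libraries. Of 58 genes with such a symbol, 30 met this minimum, out of 54532 gene IDs in the table. RNA had been sequenced from whole kidneys of wild-type (WT) C57BL/6J mice, males aged 8 weeks, taken on day 3. There were 2 DMXAA libraries, from mice given 10 mg/kg DMXAA into the peritoneum once a day for 3 days, and 3 vehicle libraries, from mice given vehicle on the same schedule. In mice DMXAA binds STING, the signalling adaptor downstream of cytosolic DNA sensing, and switches it on, and the comparison asks which transcripts differed after it. Replicate numbers are given for the samples without tying each to its own mouse, so p-values here measure only the spread between these samples, which may be technical.

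P450 enzymes of families 1 to 3 sit mainly in the endoplasmic reticulum membrane, take electrons from the reductase encoded by Por, and insert an oxygen atom into their substrate. Many are most abundant in the liver, and in the kidney they are found mainly in the proximal tubule, where Cyp2j and Cyp2c enzymes make epoxides from arachidonic acid that act on salt transport and vessel tone. Classically, the aryl hydrocarbon receptor induces genes of family 1 and the pregnane X receptor genes of family 3. The constitutive androstane receptor induces some genes of family 2, such as Cyp2b10. In mice many Cyp2 genes lie in arrays of near copies and differ between the sexes.

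The libraries held 17667490 to 20264228 counts. Vehicle library 1 stood apart. Summed adipose markers (14 genes) were at 796 and 685 CPM (counts scaled to library size) in the DMXAA libraries and 2264, 834 and 865 CPM in vehicle libraries 1, 2 and 3, and summed urothelium and inner medulla markers (14 genes) at 411 and 453 CPM in DMXAA and 1382, 349 and 514 CPM in vehicle. Lpl gave the largest part of the adipose sums, at 627 and 511 CPM in DMXAA and 1085, 650 and 671 CPM in vehicle. The adipokine Adipoq had 0 counts in both DMXAA libraries and 680, 4 and 16 in vehicle libraries 1, 2 and 3. The kidney label was checked with 20 proximal tubule markers, of which 20 passed the expression filter, together at 29360 to 40656 CPM. Markers of hepatocytes, the other main source of these enzymes (20 genes), summed to 492 and 488 CPM in DMXAA and 331, 490 and 623 CPM in vehicle, with albumin (Alb) at 1.94 to 4.55 CPM. Apob gave the largest part of these sums, at 304 and 275 CPM in DMXAA and 188, 229 and 323 CPM in vehicle. Of the 13 hepatocyte markers tested, 2 had log2 fold changes above 0 (median -0.23), against 46.9% of all tested genes. Macrophage and leukocyte markers (13 genes) summed to 275 and 240 CPM in DMXAA and 218, 213 and 315 CPM in vehicle. Adrenal cortex markers (9 genes) summed to 5.27 to 7.41 CPM, and the adrenal enzymes Cyp11b1 and Cyp11b2 had 0 counts in every library.

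In DMXAA kidneys no member was called different from vehicle after adjustment over all genes. By edgeR's quasi-likelihood test, 0 of the 24 members that passed its expression filter reached a Benjamini-Hochberg adjusted p below 0.05, as did 0% of all 16226 tested genes. DESeq2 also called 0 members, where it called 0.296% of 18246 genes. At an unadjusted p below 0.05, edgeR counted 1 member with a higher and 3 with a lower level, against 3.89% and 2.65% of all tested genes (6.55% for both directions together). Both DMXAA libraries lay above all vehicle libraries for 2 of the 24 members and below all of them for 5, against 13.7% and 12.3% of all tested genes. The median log2 fold change of the 24 was 0.022, beside -0.015 for all tested genes, and 13 estimates were above 0. The 24 estimates ran from -1.33 to 0.70, and the Cyp2j genes on chromosome 4 had estimates above 0 while most genes of the chromosome 7 array had estimates below 0.

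Levels are given in CPM, computed from the deposited counts with normalised library sizes, and genes are compared with each other in RPKM, the same value per kilobase of merged exons. By RPKM the family in kidney was made up of few genes. Cyp2j5, Cyp2e1 and Cyp2a4 held 76.0 and 76.6% of the summed RPKM of the 30 members in the DMXAA libraries and 76.6, 76.7 and 75.1% in vehicle libraries 1, 2 and 3. A mean RPKM of at least 100 was reached by 4 members, of at least 10 by 10 members and of at least 1 by 16 members. Summed over the 30 members, the level was 3723 and 3721 CPM in the DMXAA libraries and 3343, 4560 and 3319 CPM in the vehicle libraries. The DMXAA sums fell within the vehicle range, and vehicle library 2 was the highest of the 5.

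**Figure D1:**
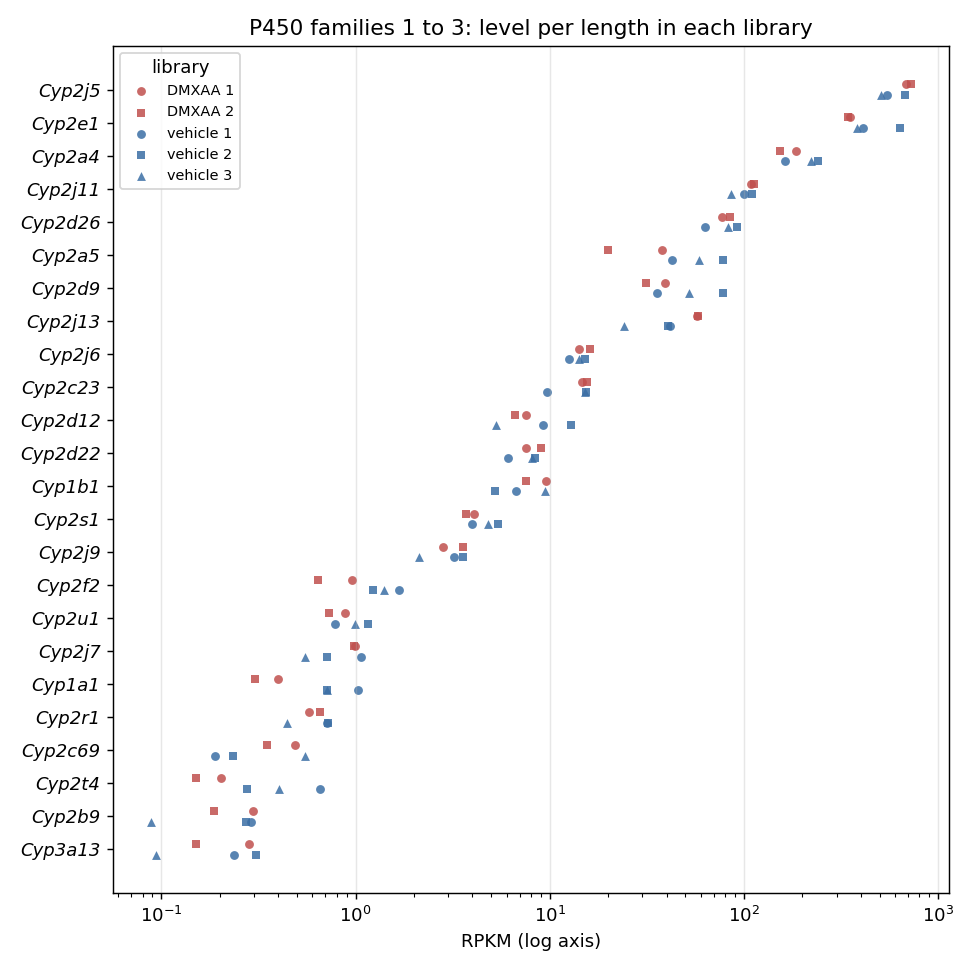
Level of each tested member in RPKM (log axis) in the 5 libraries, with members ordered from the highest to the lowest mean. Red symbols are the 2 DMXAA libraries and blue symbols the 3 vehicle libraries; Cyp2j5 and Cyp2e1 lead at a mean of 627 and 425 RPKM, while Cyp2b9 and Cyp3a13 stay below 1 RPKM.

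The Cyp2j subfamily held 7 members in an array on chromosome 4 (96027534 to 96664154 on mm10, all on the minus strand), of which 6 were tested. Cyp2j5, an arachidonic acid epoxygenase (ENSMUSG00000052520), was the most abundant member of all by mean RPKM. It was at 1599 and 1707 CPM in the DMXAA libraries, against 1281, 1576 and 1190 CPM in vehicle libraries 1, 2 and 3. Both DMXAA values lay above all vehicle values, the closest pair being DMXAA library 1 and vehicle library 2. The log2 fold change was 0.29 (SE 0.16; edgeR adjusted p = 0.758).

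Cyp2j13 (ENSMUSG00000028571) had the highest estimate of the 24 members. It was at 268 and 272 CPM in the DMXAA libraries, against 195, 190 and 113 CPM in the vehicle libraries. The groups did not overlap, and vehicle library 3 was the lowest. Its log2 fold change was 0.70 (SE 0.23; unadjusted p = 0.0183, adjusted p = 0.724 in edgeR and 0.256 in DESeq2), and 0.49 without vehicle library 3.

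Cyp2j11 was at 209 and 215 CPM in the DMXAA libraries, against 193, 210 and 164 CPM in the vehicle libraries, which overlapped (log2 fold change 0.17, SE 0.12; edgeR adjusted p = 0.794; 0.074 on the log2 scale without vehicle library 3). Cyp2j6 and Cyp2j9 averaged 54.6 ± 4.73 and 10.6 ± 1.78 CPM in DMXAA (SD, n = 2), against 50.3 ± 4.97 and 9.93 ± 2.54 CPM in vehicle (SD, n = 3). Cyp2j7 had 27 and 30 counts in the DMXAA libraries, against 30, 19 and 15 in the vehicle libraries. The groups overlapped for all 3 genes. Thus 6 of 6 tested Cyp2j genes had estimates above 0, where 46.9% of all tested genes did, with a median of 0.23. The count was also 6 with DESeq2 and with RLE scaling, and 5 without DMXAA library 2 or without vehicle library 3, where the median was 0.20 and 0.13. None of the 7 shared a 100-base transcript window with another P450 gene, although Cyp2j11 and Cyp2j8 are 89.2% identical over their aligned transcripts. Neighbouring genes of an array are not independent of each other. Summed proximal tubule markers were at 38971 and 38525 CPM in the DMXAA libraries and 36305, 40656 and 29360 CPM in the vehicle libraries, lowest in vehicle library 3 as for Cyp2j13. Of these 20 markers 15 had estimates above 0, with a median log2 fold change of 0.25. For 8 of them both DMXAA libraries lay above all vehicle libraries and for 0 below, against 13.7% and 12.3% of all tested genes. At an unadjusted p below 0.05 in edgeR, 5 were higher and 0 lower, against 3.89% and 2.65% of all tested genes. DESeq2 called 2 of the 20 markers, where it called 0.296% of 18246 genes. The part of these markers in the Cyp2j values was not tested, and nor was any difference between the Cyp2j genes and the markers. In whole tissue, fewer cells of a type and less RNA per cell cannot be told apart.

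**Figure D2:**
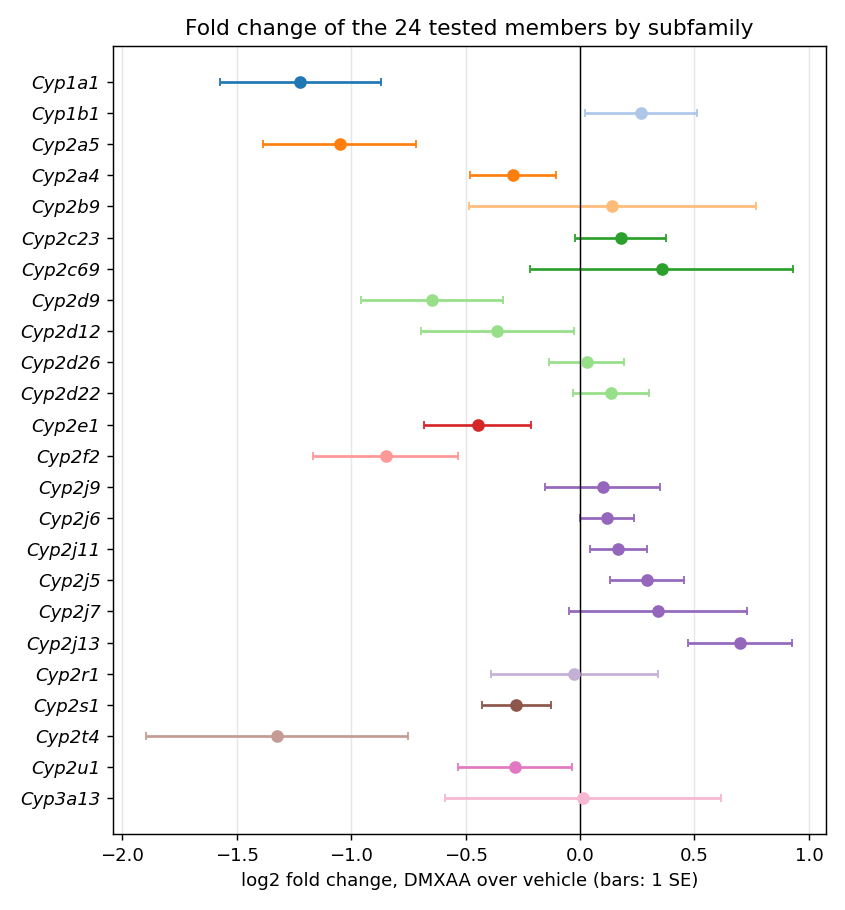
Log2 fold change, DMXAA over vehicle, of the 24 tested members, grouped and coloured by subfamily; points are edgeR estimates from 2 DMXAA and 3 vehicle libraries and bars are 1 SE. The 6 Cyp2j genes lie right of 0, and the lowest estimates are those of Cyp2t4, Cyp1a1 and Cyp2a5.

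Cyp2e1, which oxidises ethanol, acetone and other small molecules and is encoded on chromosome 7 (140763739 to 140774987 on mm10, plus strand), was the second most abundant member. It was at 762 and 743 CPM in the DMXAA libraries, against 884, 1372 and 822 CPM in vehicle libraries 1, 2 and 3. Both DMXAA values were below all vehicle values, and vehicle library 2 stood far above the rest. The log2 fold change was -0.45 (SE 0.23; edgeR adjusted p = 0.75), and -0.18 without vehicle library 2. As a share of the family's summed RPKM, Cyp2e1 made up 21.98 and 21.5% in the DMXAA libraries and 28.0, 31.5 and 25.8% in the vehicle libraries. Cyp2j5 made up 42.4 and 45.5% in the DMXAA libraries and 37.4, 33.3 and 34.3% in the vehicle libraries. The ratio of Cyp2j5 to Cyp2e1 RPKM, chosen after their values were seen and so not tested, was 1.93 and 2.11 in the DMXAA libraries and 1.33, 1.06 and 1.33 in the vehicle libraries. Such a ratio does not depend on library scaling and shows unequal levels of the 2 genes, not which of them differed.

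**Figure D3:**
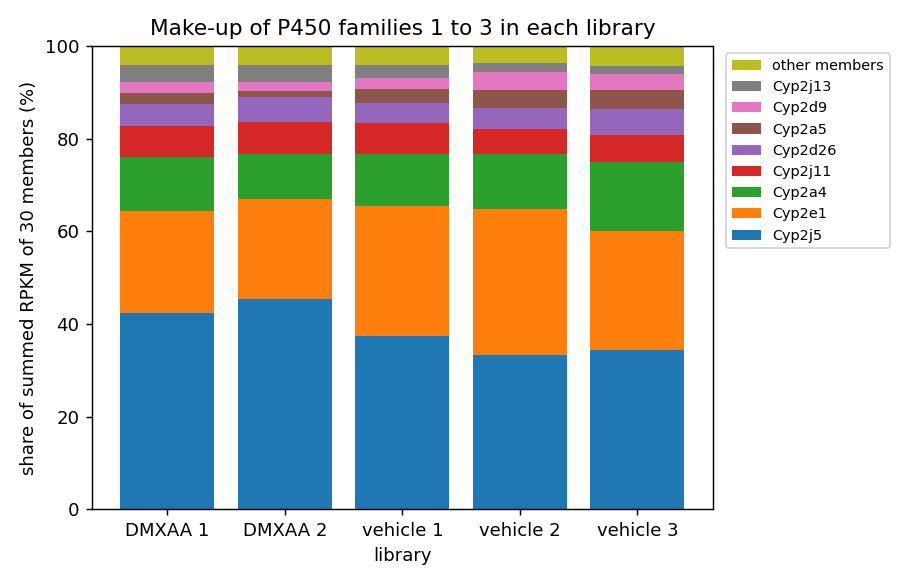
Share of the summed RPKM of the 30 members (stacked to 100%) in each library, DMXAA left and vehicle right. Cyp2j5 takes 42.4 and 45.5% in the DMXAA libraries and 33.3 to 37.4% in the vehicle libraries, and Cyp2e1 takes 21.98 and 21.5% in DMXAA and 25.8 to 31.5% in vehicle.

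The Cyp2a pair, Cyp2a4 and Cyp2a5, encodes a steroid 15-alpha-hydroxylase and the coumarin 7-hydroxylase. Their promoters, from 250 bases before to 50 after the RefSeq start (GRCm38.p6), are shown because the genes are near copies whose estimates differed in size; capitals mark the bases at which they differ. Cyp2a4 is at chr7:26306942-26307241 and Cyp2a5 at chr7:26835089-26835388, both on the plus strand.
Cyp2a4: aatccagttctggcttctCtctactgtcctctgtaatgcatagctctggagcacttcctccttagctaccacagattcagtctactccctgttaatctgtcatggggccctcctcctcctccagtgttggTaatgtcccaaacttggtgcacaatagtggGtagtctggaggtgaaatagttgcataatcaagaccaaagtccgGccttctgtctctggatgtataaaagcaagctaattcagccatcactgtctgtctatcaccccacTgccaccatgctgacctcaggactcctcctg
Cyp2a5: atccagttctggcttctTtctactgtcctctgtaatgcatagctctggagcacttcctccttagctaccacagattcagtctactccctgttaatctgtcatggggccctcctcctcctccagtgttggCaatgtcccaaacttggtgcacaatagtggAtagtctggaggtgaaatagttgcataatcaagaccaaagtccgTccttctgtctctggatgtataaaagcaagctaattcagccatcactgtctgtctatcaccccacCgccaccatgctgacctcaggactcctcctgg
Over 299 aligned bases 5 differed, and both hold the TATA box letters TATAAA, as do 13.6% of all promoters of that length (either strand).

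Cyp2a5 was at 78.9 and 41.2 CPM in the DMXAA libraries, against 88.8, 162 and 122 CPM in the vehicle libraries. The groups did not overlap, but DMXAA library 1 came near vehicle library 1, and the DMXAA libraries differed widely from each other. Its log2 fold change was -1.05 (SE 0.33; unadjusted p = 0.0174, adjusted p = 0.724 in edgeR and 0.728 in DESeq2). This ran from -1.58 without DMXAA library 1 to -0.65 without DMXAA library 2. Cyp2a4 was at 323 and 268 CPM in the DMXAA libraries, against 282, 420 and 384 CPM in the vehicle libraries, and its groups overlapped (log2 fold change -0.29, SE 0.19; edgeR adjusted p = 0.779). That estimate ran from -0.45 without vehicle library 1 to -0.16 without DMXAA library 2. Whether the estimates of the pair differ was not tested.

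The ratio of Cyp2a4 to Cyp2a5 RPKM was 4.89 and 7.75 in the DMXAA libraries and 3.79, 3.10 and 3.74 in the vehicle libraries. That ratio was likewise chosen after the values were seen and was not tested. Their transcripts are 98.3% identical, with 30 differing bases over 1738 aligned. Of 100-base windows, 11.2% of the Cyp2a4 transcript and 14.4% of the Cyp2a5 transcript also occur in another P450 gene. Reads within such windows can be split between the copies or dropped, depending on counting settings not given in the sources used here, so both levels are uncertain.

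The Cyp2a pair belongs to an array on chromosome 7 (25802475 to 27158668 on mm10) that holds 8 members, 6 of them tested. Of these, 5 had estimates below 0 and 1, Cyp2b9, above 0, where 46.9% of all tested genes had estimates above 0. The median of the 6 was -0.57. The numbers below 0 were 5 of 6 with DESeq2 and with RLE scaling as well, and the median ran from -0.81 without vehicle library 2 to -0.27 without vehicle library 3, with 5 genes tested in each of those fits. Cyp2f2, which activates naphthalene in mouse lung, was at 1.94 and 1.29 CPM in the DMXAA libraries, against 3.41, 2.50 and 2.83 CPM in the vehicle libraries. These groups did not overlap, at 26 to 63 counts a library (log2 fold change -0.85, SE 0.32; unadjusted p = 0.0332, edgeR adjusted p = 0.741).

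Its neighbour Cyp2t4 had 6 and 5 counts in the DMXAA libraries and 20, 8 and 12 in the vehicle libraries. The groups did not overlap, and the log2 fold change was -1.33 (SE 0.57; edgeR adjusted p = 0.741). Cyp2s1, an enzyme found largely outside the liver, was at 20.2 and 18.4 CPM in the DMXAA libraries, against 19.7, 26.7 and 23.8 CPM in the vehicle libraries, with overlapping groups (log2 fold change -0.28, SE 0.15; edgeR adjusted p = 0.755; -0.17 on the log2 scale without vehicle library 2). Vehicle library 1, rich in adipose and urothelial transcripts, was the highest library for Cyp2f2 and Cyp2t4. Without it the log2 fold change of Cyp2f2 was -0.73, and Cyp2t4 no longer passed the expression filter.

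Family 1 holds the enzymes that activate polycyclic aromatic hydrocarbons and that the aryl hydrocarbon receptor induces. Cyp1a1 (chromosome 9, 57687928 to 57703824 on mm10) was at 1.11 and 0.85 CPM in the DMXAA libraries, against 2.87, 1.99 and 2.00 CPM in the vehicle libraries. Both DMXAA values were below all vehicle values, at 20 and 17 counts in DMXAA and 53, 35 and 36 in vehicle, with vehicle library 1 the highest. It had the smallest p of the 24, with a log2 fold change of -1.22 (SE 0.35; unadjusted p = 0.0110, adjusted p = 0.724 in edgeR and 0.572 in DESeq2), and -1.03 without vehicle library 1. Cyp1b1, an enzyme of mesenchymal cells that acts on oestrogens and retinoids, was at 56.2 and 44.0 CPM in the DMXAA libraries, against 39.1, 30.5 and 55.4 CPM in the vehicle libraries. Its groups overlapped (log2 fold change 0.26, SE 0.25; edgeR adjusted p = 0.824), and the estimate ran from 0.084 without DMXAA library 1 or vehicle library 2 to 0.52 without vehicle library 3. Summed endothelial, smooth muscle and fibroblast markers (16 genes) were at 731 and 787 CPM in the DMXAA libraries and 923, 446 and 654 CPM in the vehicle libraries, lowest in vehicle library 2 as for Cyp1b1, and their part in that value was not tested.

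The promoters of both family 1 genes are shown with the xenobiotic response element core GCGTG, to which the aryl hydrocarbon receptor binds, in capitals on either strand. Cyp1a1 is at chr9:57697363-57697662 on the plus strand and Cyp1b1 at chr17:79715012-79715311 on the minus strand (RefSeq, GRCm38.p6).
Cyp1a1: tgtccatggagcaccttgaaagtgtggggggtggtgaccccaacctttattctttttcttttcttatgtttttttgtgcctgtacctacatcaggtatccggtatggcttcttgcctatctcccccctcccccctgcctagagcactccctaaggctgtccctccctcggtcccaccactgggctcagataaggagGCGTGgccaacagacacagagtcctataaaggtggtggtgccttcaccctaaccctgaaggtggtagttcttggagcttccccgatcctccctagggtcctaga
Cyp1b1: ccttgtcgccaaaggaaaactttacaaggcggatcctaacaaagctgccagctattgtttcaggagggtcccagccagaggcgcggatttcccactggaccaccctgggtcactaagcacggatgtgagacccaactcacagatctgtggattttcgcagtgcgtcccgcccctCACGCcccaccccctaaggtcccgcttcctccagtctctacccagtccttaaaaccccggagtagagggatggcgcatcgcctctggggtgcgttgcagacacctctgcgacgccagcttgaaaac
Each holds 1 match. The core occurs in 32.4% of all promoters of that length and in 7 of the 30 members. A match describes letters within these 300 bases and is not a site of binding.

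The Cyp2d array on chromosome 15 (82370527 to 82794294 on mm10) had 4 tested genes, of which 2 had estimates above 0 and 2 below. Cyp2d9, a testosterone 16-alpha-hydroxylase that predominates in male mouse liver, was at 104 and 83.6 CPM in the DMXAA libraries, against 94.4, 209 and 138 CPM in the vehicle libraries. The groups overlapped through vehicle library 1, and the log2 fold change was -0.65 (SE 0.31; edgeR adjusted p = 0.749), or -0.31 without vehicle library 2. Cyp2d26 was at 138 and 153 CPM in the DMXAA libraries, against 113, 165 and 149 CPM in the vehicle libraries, a log2 fold change of 0.029 (SE 0.16; edgeR adjusted p = 0.979). Cyp2d12 and Cyp2d22 averaged 27.6 ± 2.68 and 32.4 ± 4.11 CPM in DMXAA (SD, n = 2) and 35.4 ± 14.8 and 29.5 ± 5.01 CPM in vehicle (SD, n = 3), with overlapping groups. Of 100-base windows, 9.86% of Cyp2d9 and 3.79% of Cyp2d12 also occur in another P450 gene. The gene sharing most of these windows was Cyp2d10 for Cyp2d9, and Cyp2d9 for Cyp2d12, so their levels are uncertain.

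Cyp2c23, an epoxygenase of the kidney, was at 31.7 and 33.5 CPM in the DMXAA libraries, against 20.9, 33.0 and 32.6 CPM in the vehicle libraries. Only vehicle library 1 was low, and the groups overlapped. The other tested Cyp2c member, Cyp2c69, had 6 to 17 counts a library and shares 36.3% of its 100-base windows with other P450 genes. Cyp2u1, a fatty acid hydroxylase, averaged 4.22 ± 0.55 CPM in DMXAA (SD, n = 2) and 5.14 ± 0.99 CPM in vehicle (SD, n = 3), also with overlap.

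Cyp2r1, a vitamin D 25-hydroxylase, was at 1.22 and 1.39 CPM in the DMXAA libraries, against 1.51, 1.53 and 0.94 CPM in the vehicle libraries (log2 fold change -0.024, SE 0.36; edgeR adjusted p = 0.994). Of family 3, the main drug-metabolising family of liver, only Cyp3a13 met the 10-count minimum. It had 15 and 9 counts in the DMXAA libraries and 13, 16 and 5 in the vehicle libraries (log2 fold change 0.015, SE 0.60; edgeR adjusted p = 0.998). For both genes the groups overlapped, and the SE of Cyp3a13 is far larger than its estimate. Cyp2b9 had 3 to 10 counts a library.

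The other 6 members, Cyp2j8, Cyp2b10, Cyp2c68, Cyp2d10, Cyp2c38 and Cyp2b23, did not pass the expression filter, with 13 to 32 counts in all and 0 to 12 in a library. Cyp2b10, the classical target of the constitutive androstane receptor, had 3 and 12 counts in the DMXAA libraries and 4, 5 and 2 in the vehicle libraries. Of the 28 genes with matching symbols below the minimum, 17 had 0 counts in every library, among them the liver enzymes Cyp3a11, Cyp3a25, Cyp2c29 and Cyp2c70. Taking 3 counts as the limit that a count of 0 allows, these could be at up to 0.149 to 0.171 CPM, for counting error only. Cyp1a2, another enzyme of liver, had 2 counts in all.

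Vehicle library 2 differed from the other libraries in many members. The coefficient of variation had a median over the 24 tested members of 12.8% in DMXAA (n = 2) and 25.4% in vehicle (n = 3), and with these numbers of libraries the difference was not tested. Vehicle library 2 was the highest library of all for 11 of the 24 members and the highest vehicle library for 16. Such counts were not made over all tested genes, so they are not shown to be particular to the members. Summed proximal tubule markers were also highest in vehicle library 2, at 40656 CPM. DMXAA library 2 and vehicle library 3 were each the lowest library for 9. The estimates of Cyp2e1 and Cyp2d9 without vehicle library 2, -0.18 and -0.31, are the ones given above.

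**Figure D4:**
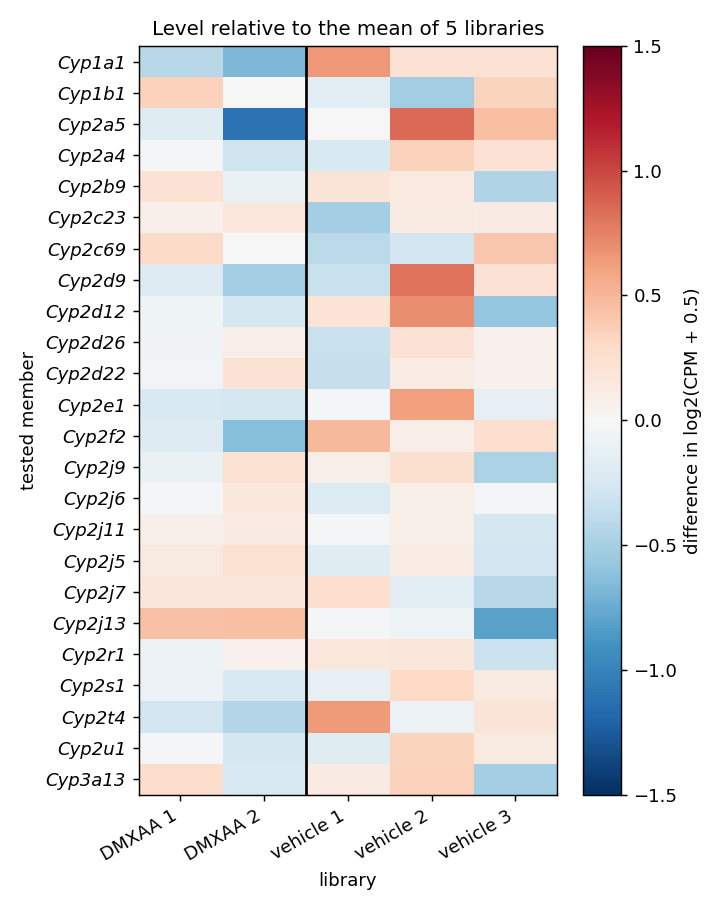
Difference of each tested member from its mean over the 5 libraries, in log2(CPM + 0.5), with DMXAA libraries left of the black line and vehicle libraries right of it. Vehicle library 2 is the highest for 11 of the 24 members, among them Cyp2e1, Cyp2a5 and Cyp2d9, while Cyp2j13 is high in both DMXAA libraries.

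Of the genes that serve or regulate P450 enzymes, edgeR called 0 in each list. Beside their counts, 46.9% of all tested genes had estimates above 0, 3.89% were higher and 2.65% lower at an unadjusted p below 0.05, 26.0% had groups that did not overlap, and DESeq2 called 0.296%. Among 18 genes for electron supply and haem synthesis, 8 had estimates above 0 (median -0.035), with 1 higher and 1 lower at an unadjusted p below 0.05. Alas1, the rate-limiting enzyme of haem synthesis, was at 270 and 369 CPM in the DMXAA libraries, against 147, 226 and 200 CPM in the vehicle libraries, without overlap (log2 fold change 0.74, SE 0.21; adjusted p = 0.724 in edgeR and 0.134 in DESeq2). Por, the electron donor of all members, was at 316 and 326 CPM in DMXAA, against 266, 306 and 250 CPM in vehicle (log2 fold change 0.23, SE 0.12; edgeR adjusted p = 0.75). The haem-binding partner Pgrmc1 was at 193 and 180 CPM in DMXAA, against 207, 251 and 228 CPM in vehicle. These 3 have the smallest p of the list, and 6 of the 18 genes had groups that did not overlap.

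Of 23 tested receptors and regulators, 16 had estimates above 0 (median 0.091), 3 higher and 1 lower at an unadjusted p below 0.05. DESeq2 called 2 of them, the fatty acid receptor Ppara (81.2 and 89.3 CPM in DMXAA, against 48.1, 45.1 and 59.6 CPM in vehicle; adjusted p = 0.00549) and the bile acid receptor Nr1h4 (160 and 175 CPM in DMXAA, against 101, 123.2 and 109 CPM in vehicle; adjusted p = 0.00933), while edgeR gave adjusted p of 0.583 and 0.62. The aryl hydrocarbon receptor gene Ahr was at 11.1 and 9.20 CPM in DMXAA, against 15.6, 10.2 and 13.5 CPM in vehicle, with overlap. Nr1i2, the pregnane X receptor, was at 8.88 and 8.81 CPM in DMXAA, against 4.65, 7.96 and 5.55 CPM in vehicle, without overlap (edgeR adjusted p = 0.749). The constitutive androstane receptor gene Nr1i3 had 0 to 6 counts a library. Hnf4a overlapped, at 935 and 1055 CPM in DMXAA and 662, 970 and 895 CPM in vehicle.

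Among 16 tested genes of arachidonic acid and epoxide metabolism, 7 had estimates above 0 (median -0.11). Ephx2, which hydrolyses the epoxides that Cyp2j and Cyp2c enzymes make, was at 326 and 316 CPM in DMXAA, against 318, 355 and 242 CPM in vehicle. The thromboxane synthase gene Tbxas1 was at 31.6 and 30.6 CPM in DMXAA, against 13.7, 17.3 and 21.4 CPM in vehicle (log2 fold change 0.84, SE 0.18; adjusted p = 0.629 in edgeR and 0.0544 in DESeq2). Of 44 phase II conjugation enzymes, 22 had estimates above 0 (median -0.0091). DESeq2 called Gstm1 lower (363 and 307 CPM in DMXAA, against 562, 483 and 444 CPM in vehicle; adjusted p = 0.0432) and Gstp2 higher (1.94 and 1.94 CPM in DMXAA, against 0.27, 0.06 and 0.33 CPM in vehicle; adjusted p = 0.0232), glutathione transferases with near copies in the genome, whose levels are uncertain. Of 20 other monooxygenases and aldehyde oxidases, 10 had estimates above 0 (median -0.050).

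P450 genes outside families 1 to 3 were taken by symbol, as Cyp, a family number above 3, a subfamily letter and a gene number. P450 genes with any other form of symbol were left out. The set gave 19 tested genes, 9 with estimates above 0 (median -0.021) and 0 called by edgeR. At an unadjusted p below 0.05 in edgeR, 3 were higher and 1 lower, against 3.89% and 2.65% of all tested genes. Both DMXAA libraries lay above all vehicle libraries for 6 of the 19 and below for 1, against 13.7% and 12.3%. Over all genes, DESeq2 called 0.296% of 18246. DESeq2 called the vitamin D 24-hydroxylase Cyp24a1 (101 and 299 CPM in DMXAA, against 41.7, 21.2 and 33.2 CPM in vehicle; adjusted p = 0.0153) and the retinoic acid hydroxylase Cyp26b1 (21.7 and 38.6 CPM in DMXAA, against 8.38, 16.7 and 8.54 CPM in vehicle; adjusted p = 0.0391). Whether families 1 to 3 differ from these other P450 genes was not tested.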

How the data were processed

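RNA was measured in kidneys of 2 DMXAA and 3 vehicle samples. The authors deposited a table of raw read counts per Ensembl gene ID. The build mm10 and the tools HISAT2, Subread, featureCounts and DESeq2 (1.16.1) are named per the submitters' processing notes; no annotation, strand setting or handling of multi-mapping reads is stated. Per the labels' protocols, RNA was taken with Trizol, and both a TruSeq and a NEBNext kit are named without saying which served which sample. Columns CO1 to CO3 were read as vehicle and XA1 and XA2 as DMXAA replicates. GENCODE M21 (GRCm38) named 99.9% of IDs and gave exon lengths. Reads of overlapping genes cannot be told apart.

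Counts were tested with the quasi-likelihood F test of edgeR 4.0.16 (R 4.3.3), two-sided, TMM scaling, default expression filter, group as the only term, on all 5 libraries, Benjamini-Hochberg adjusted over 16226 genes. In simulated counts of 2 against 3 libraries, with a common dispersion, this test called 52 of 100 genes changed 2-fold. It called 100 of 100 changed 4-fold, and 5 unchanged genes. A member that was not called is thus not shown to be unchanged. SE is the estimate divided by the root of F. Alternatives were DESeq2 1.42.0, other scaling, filters and dispersion fits, the replicate number as a block, and each library left out. All pairs of libraries differed beyond counting error (chi-square divided by its degrees of freedom, 7.35 to 38.5).

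Full statistics are given for the 8 members with the smallest p, the 8 most abundant and a few fixed names; gene lists show up to 3 genes by p, and marker lists their sums. Members and lists were chosen with earlier results of these data known. Protein sequences were not used here.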

Additional observations from a re-analysis of the deposited data

How the results depend on the processing

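No member was called under any alternative run, and the smallest adjusted p of a member was 0.146 (edgeR without an expression filter). Over all genes, where the default edgeR fit called 0 (1062 at an unadjusted p below 0.05), DESeq2 called 46 higher and 8 lower, edgeR without a filter 29 and 5, and leaving out 1 library 0 to 1 in each direction, the 1 higher and 1 lower gene coming without vehicle library 1. Members with estimates above 0 numbered 10 to 13 when 1 library was left out. Their median log2 fold change, 0.022 with all libraries, ran from -0.22 (without vehicle library 3) to 0.092 (without vehicle library 2) and was -0.069 and -0.064 without DMXAA library 1 and 2. Of the 15 members given with full statistics, 12 kept their sign under every alternative that tested them; Cyp2t4 did not pass the filter of 1 CPM in 2 samples, nor the default one without vehicle library 1 or 3. Cyp2d26 turned to -0.12 at the lowest without 1 library (highest 0.15), Cyp2r1 to 0.092 at the highest (lowest -0.22), and Cyp3a13 ran from -0.48 to 0.40. Fewer samples entered those fits. The replicate numbers share no stated mouse or day, and deviations of same-numbered libraries correlated at 0.070 and 0.066. With 2 DMXAA libraries, their deviations from the group mean mirror each other (correlation -1). These correlations therefore cannot decide whether the replicate numbers mark pairs. With the replicate block, edgeR called 2 genes higher and 2 lower, the median of the members was -0.22, Cyp3a13 was at -0.36, and 5 of 6 Cyp2j genes had estimates above 0 (median 0.15). Depth limits members under about 10 counts a library.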
